A study of Mus musculus with 20 samples.

Results

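Ribosome biogenesis factors are the proteins that process the precursor of the ribosomal RNAs (pre-rRNA) and assemble it with ribosomal proteins, without staying in the finished ribosome. A list of 60 such genes was followed across an array series on loss of UBF, a DNA-binding factor of RNA polymerase I transcription encoded by Ubf (gene symbol Ubtf). For each gene the probe set annotated with that symbol alone and with the highest mean over the 20 arrays was taken. Of the 60 genes, 59 had such a probe set, among 19938 genes with one in the whole series, and Noc2l was not analysed here. All 59 passed the filter on low values, as did 15272 genes of the series. Of the 59, Nop58, Ddx10 and Mphosph10 passed it on 1 of 10 iMEF arrays and 9 or 10 MEF arrays. The list follows the known roles of the genes, with no threshold on these measurements. It holds 3 proteins of box C/D small nucleolar RNPs (snoRNPs), 4 of box H/ACA snoRNPs, 4 abundant nucleolar proteins, 21 factors of the small subunit processome, 5 late factors of the small subunit and 23 factors of the large subunit.

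Pre-rRNA is made in the nucleolus by RNA polymerase I as a single long transcript that holds rRNAs of both ribosomal subunits. Box C/D snoRNPs guide methylation of riboses and box H/ACA snoRNPs guide the change of uridines to pseudouridines, and the U3 snoRNP, itself of the box C/D kind, nucleates the small subunit processome on the nascent transcript. Late small subunit factors then carry the particle through export to the cytoplasm, while a separate set of GTPases, helicases and scaffold proteins builds the large subunit. In proliferating fibroblasts this pathway takes up much of the transcriptional capacity of the cell, and its genes are known targets of Myc.

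The floxed groups were immortalized embryo fibroblasts (iMEFs) of genotype Ubf fl/fl, in which Cre removes exons of Ubf, and primary fibroblasts (MEFs) of the same genotype. Their controls were iMEFs and MEFs of genotype Ubf wt/wt, and all 4 lines carried Er-cre+/+, a Cre recombinase that 4-hydroxytamoxifen (4-HT) switches on. MEFs came from embryos of day 14.5, and iMEFs were obtained by transfection with SV40 T antigens. All cells, controls included, received 50 nM 4-HT for 4 h and were harvested at 0, 24, 48, 72 and 96 h post 4-HT. Each of the 20 combinations had 1 array, so the spread came from times and lines and not from repeated cultures.

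Values are log2 signals, normalized by the authors. The median over the 15272 genes lay between 7.96 and 8.16 on iMEF arrays and between 8.18 and 8.34 on MEF arrays, and the interquartile range between 2.25 and 2.82 on iMEF arrays and between 2.61 and 2.82 on MEF arrays. The 10 fibroblast markers were over the 40th percentile on all 10 MEF arrays, whereas Lum and Fap were so on 0 iMEF arrays. Their summed linear signal was 27403 to 38139 on iMEF arrays and 53971 to 62127 on MEF arrays, and Dcn lay between 6.30 and 7.24 on iMEF arrays and between 11.87 and 13.07 on MEF arrays. All 11 macrophage markers measured were lower in iMEFs, with Lyz2 and Adgre1 over the 40th percentile on 0 iMEF arrays and on 10 MEF arrays, and Lyz2 lay between 4.64 and 5.74 on iMEF arrays and between 11.61 and 12.59 on MEF arrays. The summed linear signal of the macrophage list was 1091 to 2159 on iMEF arrays and 9182 to 27383 on MEF arrays. The median of 9 proliferation markers was 10.32 to 10.97 on iMEF arrays and 7.57 to 10.2 on MEF arrays, with the values under 9 at 48, 72 and 96 h in both MEF lines. The Ubtf probe set gave a late effect of 0.13 ± 0.18 in iMEFs and 0.36 ± 0.18 in MEFs (log2, SE; adjusted p = 0.703 and 0.718 in limma). The exons its probes lie in are not given in the sources used here, so it is no check of the deletion.

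Promoters of the factor genes were searched for short motifs because a shared promoter element is 1 property that the list did not use. The RefSeq promoter table (build GRCm38.p6) held 57 promoters of 53 members, and the 250 bases before each start site were read on both strands. The ETS core CCGGAA, to which ETS transcription factors bind, occurred in 25 of the 57 member promoters (43.9%), against 12% of all 32851 promoters of that length and 18.4% of the promoters of genes tested. The E-box CACGTG, to which Myc binds with Max, occurred in 4 (7.02%), against 6.02% of all promoters and 7.81% of those of genes tested, and TATAAA in 2 (3.51%), against 12.4% and 7.26%. The ETS core stood in 42.9% of 35 promoters of members lower in iMEFs than in MEFs, in 37.5% of 8 promoters of members higher there, and in 58.3% of 12 promoters of members not called. The 35 include those of Nop58, Ddx10 and Mphosph10, which hold 2 ETS cores each. These 3 genes passed the filter through MEF arrays alone, so the 42.9% rests in part on members that had to be lower. The promoters of Noc2l held none of the motifs. The E-box genes were Imp4, Nmd3, Nop2 and Utp18. The promoters printed below all hold the ETS core or the E-box and belong to members named in the results. Ddx56, Utp20, Noc4l and Ddx21, also named there, hold neither motif and are among those not printed. Capitals mark the ETS core (CCGGAA, or TTCCGG where it lies on the other strand) and the E-box (CACGTG), and each sequence ends at the last base before the start site.
Tsr1 promoter, chr11:74897830-74898079 (+ strand): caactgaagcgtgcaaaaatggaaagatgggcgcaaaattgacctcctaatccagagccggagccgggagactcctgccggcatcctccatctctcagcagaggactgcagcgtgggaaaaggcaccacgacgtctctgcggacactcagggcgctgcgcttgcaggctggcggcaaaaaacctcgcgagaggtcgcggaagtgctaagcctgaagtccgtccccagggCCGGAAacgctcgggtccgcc
Brix1 promoter, chr15:10485938-10486187 (- strand): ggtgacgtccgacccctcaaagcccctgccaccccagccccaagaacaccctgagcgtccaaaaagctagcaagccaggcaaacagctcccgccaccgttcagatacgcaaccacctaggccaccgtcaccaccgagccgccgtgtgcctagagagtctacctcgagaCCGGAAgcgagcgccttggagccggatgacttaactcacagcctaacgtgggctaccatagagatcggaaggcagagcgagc
Nmd3 promoter, chr3:69721805-69722054 (+ strand): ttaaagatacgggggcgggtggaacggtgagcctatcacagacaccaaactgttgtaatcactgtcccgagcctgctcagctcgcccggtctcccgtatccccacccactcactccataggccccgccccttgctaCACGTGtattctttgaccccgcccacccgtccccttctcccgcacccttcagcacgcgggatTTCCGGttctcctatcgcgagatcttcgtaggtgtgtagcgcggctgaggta
Emg1 promoter, chr6:124712179-124712428 (- strand): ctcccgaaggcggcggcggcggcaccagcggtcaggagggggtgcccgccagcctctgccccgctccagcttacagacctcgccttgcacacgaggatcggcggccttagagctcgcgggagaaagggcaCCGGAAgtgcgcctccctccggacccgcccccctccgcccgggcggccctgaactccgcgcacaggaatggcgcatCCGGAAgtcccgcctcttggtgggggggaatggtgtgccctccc
Nop2 promoter, chr6:125131633-125131882 (+ strand): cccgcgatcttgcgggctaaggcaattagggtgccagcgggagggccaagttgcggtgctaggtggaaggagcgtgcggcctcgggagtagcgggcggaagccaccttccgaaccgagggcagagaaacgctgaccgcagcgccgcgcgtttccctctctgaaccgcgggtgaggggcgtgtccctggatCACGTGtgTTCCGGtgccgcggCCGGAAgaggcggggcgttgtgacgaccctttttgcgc
Rrp9 promoter, chr9:106477059-106477308 (+ strand): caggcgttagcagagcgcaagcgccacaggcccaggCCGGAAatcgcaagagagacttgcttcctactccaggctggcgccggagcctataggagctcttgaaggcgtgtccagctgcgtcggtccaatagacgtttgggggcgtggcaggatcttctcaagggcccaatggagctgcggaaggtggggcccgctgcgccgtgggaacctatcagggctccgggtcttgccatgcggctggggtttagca
Imp4 promoter, chr1:34439579-34439828 (+ strand): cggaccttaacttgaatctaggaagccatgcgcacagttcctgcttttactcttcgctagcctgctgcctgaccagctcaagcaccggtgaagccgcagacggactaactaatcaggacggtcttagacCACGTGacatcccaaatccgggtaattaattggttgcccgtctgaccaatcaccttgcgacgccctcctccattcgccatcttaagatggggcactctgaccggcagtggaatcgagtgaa
Tsr1, Brix1 and Nmd3 were lower in iMEFs, Emg1 and Nop2 were higher, Rrp9 had the highest late effect, and Imp4 fell with time. The ETS core of Tsr1 starts 21 bases before the start site, that of Brix1 82 bases and that of Rrp9 214 bases before it. Emg1 holds it 120 and 44 bases before the start site. Nmd3 holds the E-box at 114 and the ETS core at 52 bases, Nop2 holds the E-box at 60 and the ETS core at 52 and 38 bases, and Imp4 holds the E-box at 121 bases. Thus promoters with the ETS core were found on both sides of the comparison of cell types. A match to these letters describes the window and does not show that a factor binds there.

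The clearest pattern over the 20 arrays was a split of the factors between immortalized and primary cells. In iMEFs 37 members were lower and 8 higher than in MEFs, on line means (2 lines against 2, limma, adjusted p under 0.05), and 14 were not called. Nop58, Ddx10 and Mphosph10, counted among the lower, passed the filter through MEF arrays alone and so had to differ, and 34 were lower without them. On the 0 h arrays alone 28 were lower and 2 higher, and on the 96 h arrays alone 28 and 3. At those times 30.6% and 35.8% of all genes were called in either direction. With 2 lines of different genotype per cell type, the p-values measure the spread between these lines and not between embryos. Of all genes tested, 31.2% were lower and 35.1% higher by the same rule (66.3% in either direction), against 62.7% and 13.6% of the members. The median difference was -0.45 over the members and 0.12 over all genes. The 10 iMEF arrays lay entirely below the 10 MEF arrays for 16 members (27.1%), where 14.6% of all genes did so, and entirely above them for 2 members (3.39%), Emg1 and Ddx56, where 11% of all genes did so. The 16 were Utp20, Wdr43, Wdr75, Wdr3 and Nop14 of the processome, Ltv1 and Tsr1 of the late small subunit, and Wdr12, Brix1, Noc3l, Gnl3, Mdn1, Ddx18, Ftsj3, Nmd3 and Surf6 of the large subunit. In these bulk samples fewer cells that express a gene and less of its RNA per cell cannot be told apart, and the fibroblast, macrophage and proliferation markers given above moved with the same comparison. Their part in it was not tested. The mean level over the 20 arrays had a median of 8.25 for the 37 members called lower, 10.2 for the 8 called higher and 9.62 for the 14 not called. That mean takes in the iMEF arrays, so a lower or higher call is itself part of it. The 37 also include Nop58, Ddx10 and Mphosph10. The median gene span was 21613, 12556.5 and 10037 bases in the same order. Whether level or span had a part in the split was not tested.

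**Figure D1:**
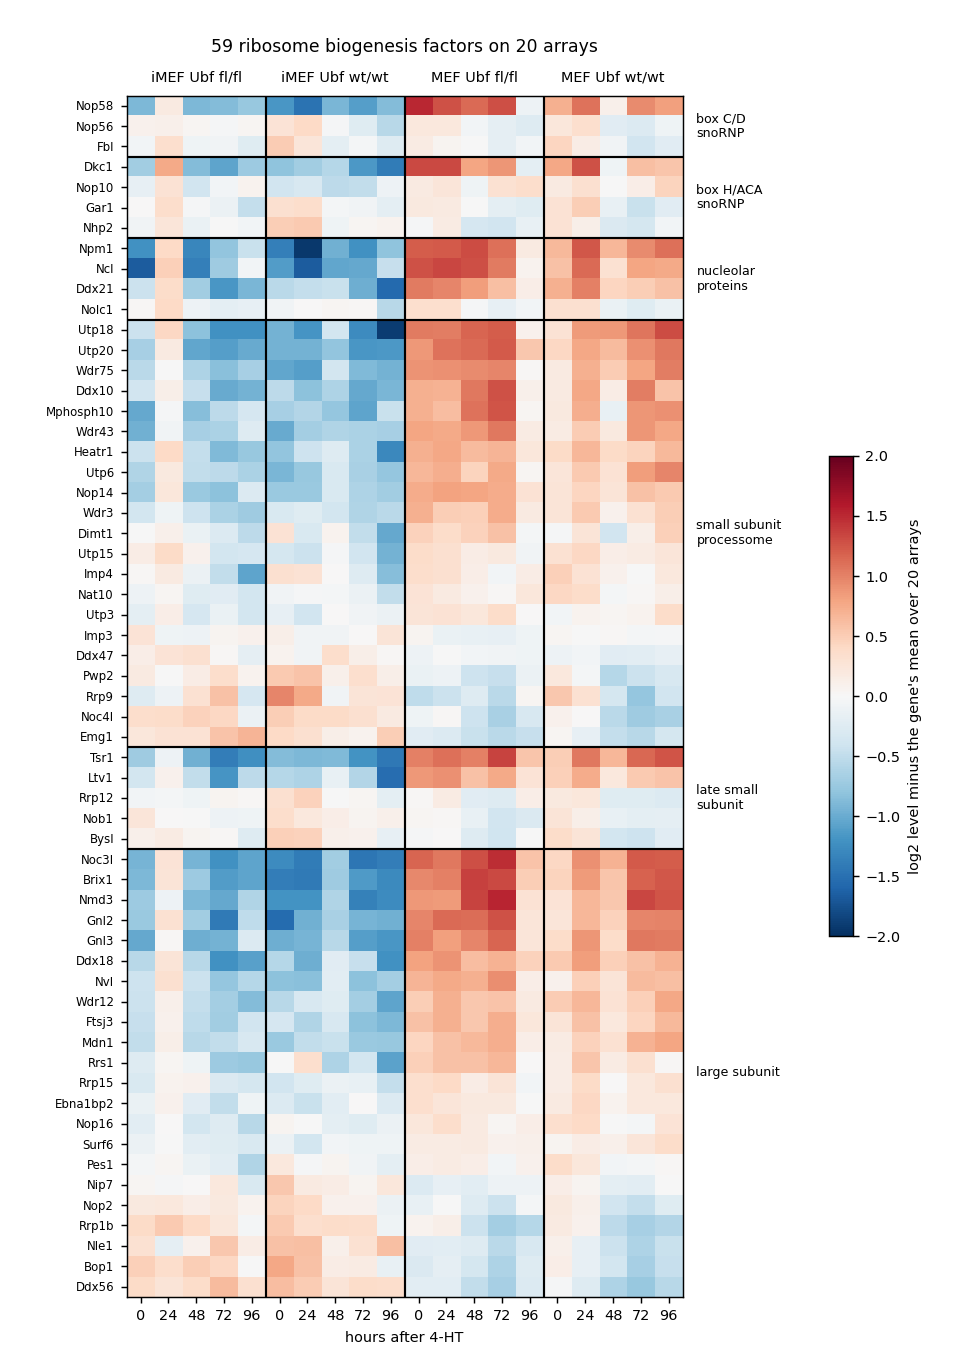
Log2 level of each of the 59 factors minus its own mean over the 20 arrays (colour, from -2 to 2), with genes as rows grouped by step and arrays as columns by line and hours after 4-HT. Most rows are blue on iMEF arrays and red on MEF arrays, a smaller set, with Emg1, Bop1 and Ddx56 among it, runs the other way, and the iMEF Ubf fl/fl array at 24 h and the MEF Ubf fl/fl array at 96 h stand apart from the other times of their lines.

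Scaling of the arrays shifted this split. With each array centred on its median, the median over all genes moved to 0.24 and that over the members to -0.32. Then 14 members were higher and 30 lower, and 73.2% of all genes were called in either direction. With quantile scaling 15 were higher and 31 lower, with medians of -0.28 over the members and 0.19 over all genes, and 67.6% of all genes were called. The 8 members called higher, and Tsr1, Noc3l, Brix1, Nmd3, Npm1, Utp18 and Utp20 among those called lower, kept their direction and their call under both.

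Proteins of 1 complex differed in their values between the cell types. Among the box C/D proteins, Nop58 (probe set 10346634) had low signals in iMEFs, while Fbl, the fibrillarin methyltransferase, and Nop56, a paralog of Nop58 in the same particle, were not called. Nop58 had log2 levels of 5.58, 6.15 and 7.22 on the iMEF arrays (lowest, median and highest of 10), against 6.95, 8.07 and 8.55 on the MEF arrays. The groups overlapped only through the highest iMEF array, that of Ubf fl/fl cells at 24 h, and Nop58 was over the 40th percentile on 1 of 10 iMEF arrays, so that it passed the filter through the MEF arrays and its difference is given with no test. Fbl had 9.73, 9.93 and 10.51 on the iMEF arrays and 9.60, 9.97 and 10.41 on the MEF arrays, and Nop56 10.42, 11 and 11.36 on the iMEF arrays and 10.69, 10.90 and 11.30 on the MEF arrays. Both ranges overlapped over most of their width. The differences were -1.75 for Nop58, 0.03 ± 0.08 for Fbl (SE; adjusted p = 0.792) and 0.02 ± 0.08 for Nop56 (adjusted p = 0.859; limma, 2 lines each). The 95% intervals were -0.19 to 0.25 for Fbl and -0.20 to 0.24 for Nop56.

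Of the box H/ACA proteins 2 were lower and 2 not called. Dkc1, the dyskerin pseudouridine synthase, had log2 levels of 6.01, 6.64 and 8.16 on the iMEF arrays (lowest, median and highest of 10), against 7.21, 8.19 and 8.72 on the MEF arrays. It was lower in iMEFs, at -1.44 (SE 0.16; adjusted p = 0.00226), and the overlap came from 1 iMEF array, that of Ubf fl/fl cells at 24 h, since the next highest iMEF array read 6.84. Nop10, a small core protein, was lower, at -0.41 ± 0.13 (adjusted p = 0.041). Gar1 and Nhp2, the other core proteins, differed by 0.02 ± 0.09 and 0.20 ± 0.11 and were not called (adjusted p = 0.844 and 0.153).

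Of the 4 nucleolar proteins 3 were lower in iMEFs. Npm1, nucleophosmin of the granular component, had log2 levels of 7.96, 8.80 and 10.28 on the iMEF arrays (lowest, median and highest of 10), against 10.06, 10.98 and 11.18 on the MEF arrays. Ncl, nucleolin, an RNA-binding protein of the nucleolus, had 7.76, 8.40 and 9.91 on the iMEF arrays and 9.49, 10.34 and 10.77 on the MEF arrays. Ddx21, a nucleolar RNA helicase, had 7.79, 8.73 and 9.72 on the iMEF arrays and 9.48, 10.00 and 10.39 on the MEF arrays. In all 3 genes the ranges met only at the ends, where the highest iMEF array was that of Ubf fl/fl cells at 24 h and the lowest MEF array that of Ubf fl/fl cells at 96 h. The differences were -1.92 ± 0.21 for Npm1, a ratio of 0.263 (adjusted p = 0.00191), -1.72 ± 0.18 for Ncl (adjusted p = 0.00177) and -1.36 ± 0.11 for Ddx21 (adjusted p = 0.00116). A further 3 probe sets that Npm1 shares with Gm15484 differed by -2.06, -2.07 and -2.13. Nolc1, a chaperone of snoRNPs also called Nopp140, differed by -0.12 ± 0.09 (adjusted p = 0.281).

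In the small subunit processome 14 of 21 members were lower in iMEFs and 3 higher, with a median of -0.46, and 12 were lower without Mphosph10 and Ddx10. The UtpA subcomplex, which binds the nascent transcript first, was represented by Heatr1, Utp15, Wdr43 and Wdr75. Heatr1 was lower, at -1.11 ± 0.12, Wdr43 at -1.24 ± 0.13 and Wdr75 at -1.40 ± 0.14 (adjusted p = 0.00189, 0.00172 and 0.00162), and Utp15 differed by -0.45 ± 0.16 and was not called (adjusted p = 0.0546). In the UtpB subcomplex Utp18, Utp6 and Wdr3 were lower, at -1.78 ± 0.17, -1.10 ± 0.12 and -0.85 ± 0.10, while Pwp2 was higher by 0.48 ± 0.10 (adjusted p = 0.00158, 0.00204, 0.00256 and 0.0128). Pwp2 had log2 levels of 8.83, 9.0 and 9.40 on the iMEF arrays (lowest, median and highest of 10), against 8.27, 8.61 and 9.04 on the MEF arrays. Its ranges overlapped, and its call was lost when a MEF line was left out (adjusted p = 0.0734 without Ubf fl/fl and 0.0623 without Ubf wt/wt). Utp20, a large scaffold protein, had log2 levels of 7.29, 7.47 and 8.63 on the iMEF arrays (lowest, median and highest of 10), against 8.86, 9.35 and 9.68 on the MEF arrays, with no overlap, and was lower, at -1.73 ± 0.14 (adjusted p = 0.0011).

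Of the Mpp10 complex, which joins the processome together with U3, Imp4 was lower, at -0.39 ± 0.10, and Imp3 differed by 0.09 ± 0.09 and was not called (adjusted p = 0.0254 and 0.366). Mphosph10, the scaffold of the complex, was over the 40th percentile on 1 of 10 iMEF arrays and differed by -1.26, given with no test. Nop14 was lower, at -1.08 ± 0.13, while Noc4l and Emg1, its partners in the yeast processome, were higher by 0.65 ± 0.09 and 0.69 ± 0.10 (adjusted p = 0.00249, 0.00329 and 0.00374). Emg1, a methyltransferase that acts on 18S rRNA, had log2 levels of 10.48, 10.72 and 11.09 on the iMEF arrays (lowest, median and highest of 10), against 9.87, 10.01 and 10.45 on the MEF arrays, with no overlap. Among the other enzymes of 18S rRNA, Dimt1, a dimethyltransferase, was lower, at -0.46 ± 0.13 and Nat10, an acetyltransferase, at -0.33 ± 0.08 (adjusted p = 0.0284 and 0.0211). Of the helicases in this step, Ddx47 differed by 0.21 ± 0.09 and was not called, and Ddx10, over the 40th percentile on 1 of 10 iMEF arrays, differed by -1.31, given with no test. Utp3 was lower, at -0.33 ± 0.09 (adjusted p = 0.03, and 0.0782 for Ddx47). Rrp9, the protein that marks the U3 snoRNP, was the member closest to the threshold on the higher side among those not called, at 0.48 ± 0.17 (adjusted p = 0.053).

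Of the 5 late small subunit factors Tsr1 and Ltv1 were lower in iMEFs. Tsr1, a GTPase-like factor of late particles, had log2 levels of 6.71, 7.22 and 8.05 on the iMEF arrays (lowest, median and highest of 10), against 8.64, 9.18 and 9.5 on the MEF arrays. The groups did not overlap, and the difference was -1.93 ± 0.10, a ratio of 0.263 (adjusted p = 0.000743). Ltv1, which leaves the particle late, had 7.02, 8.0 and 8.62 on the iMEF arrays and 8.75, 9.12 and 9.45 on the MEF arrays, again with no overlap, and differed by -1.18 ± 0.12 (adjusted p = 0.00158). Bysl, Nob1, the nuclease that forms the end of 18S rRNA, and Rrp12 differed by 0.21 ± 0.10, 0.18 ± 0.10 and 0.10 ± 0.09 and were not called.

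Large subunit factors spanned the whole range of differences, with 15 of 22 lower in iMEFs, 5 higher and a median of -0.56. Noc3l (probe set 10467344), a factor of early large subunit particles, had log2 levels of 6.42, 6.74 and 8.14 on the iMEF arrays (lowest, median and highest of 10), against 8.28, 8.97 and 9.34 on the MEF arrays. It had the largest difference of all members, -2.0 ± 0.19, a ratio of 0.249 (adjusted p = 0.00141). Brix1, an assembly factor of early particles, had 6.97, 7.29 and 8.64 on the iMEF arrays and 8.83, 9.36 and 9.75 on the MEF arrays, and Nmd3, the adaptor that exports the large subunit, had 7.19, 7.59 and 8.44 on the iMEF arrays and 8.82, 9.41 and 10.08 on the MEF arrays. Neither overlapped, and they were lower, at -1.89 ± 0.18 and -1.79 ± 0.17 (adjusted p = 0.00152 and 0.00157). Gnl3, the GTPase nucleostemin, was lower, at -1.59 ± 0.13, and Mdn1, the giant ATPase that strips factors from the particle, at -0.98 ± 0.12 (adjusted p = 0.00118 and 0.0028), with no overlap in either. The helicase Ddx18 was lower, at -1.32 ± 0.09, with -0.73 in its second probe set, the ATPase Nvl at -1.05 ± 0.15 and the methyltransferase Ftsj3 at -0.99 ± 0.11 (adjusted p = 0.000863, 0.00371 and 0.00223). Gnl2, a GTPase, and Rrs1 were lower, at -1.62 ± 0.18 and -0.70 ± 0.11, and Rrp15, Ebna1bp2, Nop16 and Surf6 by smaller amounts, from -0.32 for Surf6 to -0.43 for Rrp15. Nip7 differed by 0.21 ± 0.12 and was not called (adjusted p = 0.163).

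On the higher side, Ddx56 (probe set 10384123), an RNA helicase of the large subunit pathway, had log2 levels of 11.13, 11.24 and 11.51 on the iMEF arrays (lowest, median and highest of 10), against 10.10, 10.48 and 10.84 on the MEF arrays. The groups did not overlap, and the difference was 0.82 ± 0.08, a ratio of 1.76 (adjusted p = 0.00176). The PeBoW complex, which is needed to form 28S and 5.8S rRNA, had its 3 proteins on different sides of the threshold. Bop1 was higher by 0.64 ± 0.08, Pes1 differed by -0.19 ± 0.10 and was not called, and Wdr12 was lower, at -1.04 ± 0.09 (adjusted p = 0.00304, 0.143 and 0.00119). Bop1 had log2 levels of 10.06, 10.59 and 10.98 on the iMEF arrays and 9.55, 9.88 and 10.34 on the MEF arrays, and Wdr12 7.56, 8.11 and 8.72 on the iMEF arrays and 8.80, 9.14 and 9.40 on the MEF arrays. A second Wdr12 probe set differed by -1.15. Nle1, a partner of Mdn1 in yeast, Rrp1b and Nop2, a methyltransferase of 28S rRNA, were higher by 0.62 ± 0.12, 0.60 ± 0.08 and 0.34 ± 0.08 (adjusted p = 0.00925, 0.00348 and 0.019). The Nop2 call was lost when a MEF line was left out (adjusted p = 0.156 without Ubf fl/fl and 0.133 without Ubf wt/wt). On the 0 h arrays alone Emg1, Noc4l, Nle1 and Rrp1b were not called (adjusted p = 0.141, 0.116, 0.0968 and 0.202), and on the 96 h arrays alone Bop1, at 0.28, Noc4l and Rrp1b were not (adjusted p = 0.351, 0.131 and 0.0981). Pwp2 and Nop2 were called on neither.

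**Figure D2:**
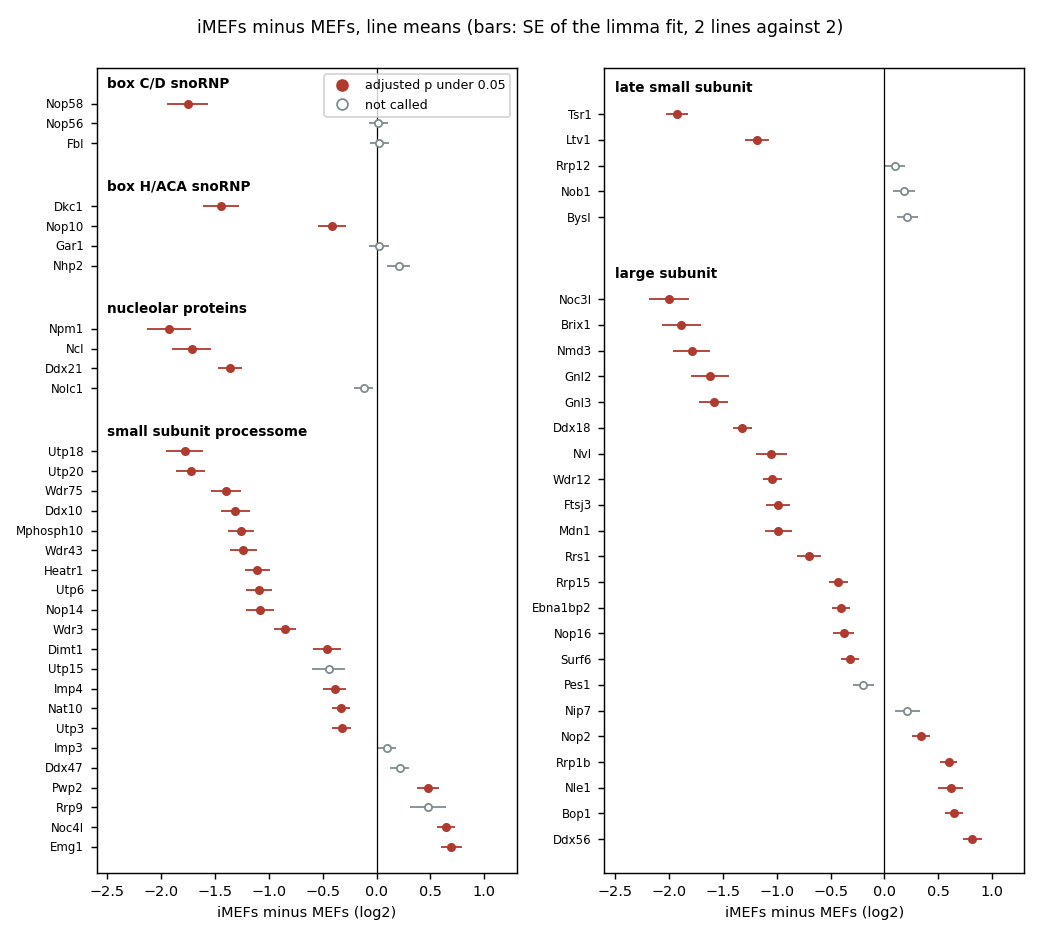
Difference between iMEFs and MEFs on line means (log2, x axis) for each of the 59 factors, grouped by step, with bars for the SE of the limma fit. Filled points passed the adjusted threshold; every step but the nucleolar proteins has factors on both sides of 0, from Noc3l at -2.0 to Ddx56 at 0.82.

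Among 79 other genes of the pathway, 37 were lower in iMEFs and 24 higher, with a median of -0.15, so that their share of lower genes (46.8%) lay between that of the members (62.7%) and that of all genes (31.2%).

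Members also differed in how they varied from array to array. Over the 20 arrays Pearson's r with Npm1 ran from -0.86 for Ddx56 to 0.98 for Ncl. With each line centred on its own mean, the genes most like Npm1 were Ncl (r = 0.95), Nop58 (0.86), Nop14 (0.84) and Gnl3 (0.75), and the least like it were Bop1 (-0.42), Pwp2 (-0.40) and Rrp9 (-0.38). These are descriptions over 20 arrays that share lines. Over all 1711 pairs of members, the median r was 0.48 across arrays and 0.37 within lines. No such median is given for pairs of all genes, so these values are not shown to be particular to the members. The arrays described next, which stood apart, are included in each r.

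The array of Ubf fl/fl iMEFs at 24 h and that of Ubf fl/fl MEFs at 96 h stood apart from the other times of their lines. On the iMEF array 50 of 59 members were above their line's mean, and the members' median lay 0.50 above that of the other times of the line, against -0.03 over all genes. On the MEF array at 96 h 11 members were above their line's mean, and the median lay -0.34 from the other times, against 0.09 over all genes. Npm1 read 10.28 on the iMEF array, against 8.67, 8.59, 9.09 and 9.44 at 0, 48, 72 and 96 h in that line. Dkc1 read 8.16 on it, against 6.71, 6.54, 6.35 and 6.67. On the array of Ubf wt/wt MEFs at 48 h 1 of 59 members was above its line's mean, and the members' median lay -0.25 from the other times. Each of these conditions had 1 array, so the state of the cells and the handling of the RNA cannot be told apart. The late effect and the slopes are therefore given with and without the first 2 of these arrays, a choice made after the values were seen, and the first day with and without the floxed iMEF line.

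Several members hold snoRNA genes within their RefSeq spans, and 4 of those snoRNAs had a probe set of their own, namely Snord57 in Nop56, Snord82 and Snora75 in Ncl, and Snord53 in Wdr43. Snord57, Snord82 and Snord53 were higher in iMEFs, where Ncl and Wdr43 were lower and Nop56 was not called. Snord53 was higher by 1.78 ± 0.20 (adjusted p = 0.0022) with Wdr43 lower, at -1.24 ± 0.13, and Snord82 was higher by 1.44 ± 0.15 (adjusted p = 0.0018) with Ncl lower, at -1.72 ± 0.18. Snord57 was higher by 0.92 ± 0.09 (adjusted p = 0.0015). These 3 calls held under all 16 alternatives run. Snora75 lay between 5.15 and 7.14 on iMEF arrays and between 5.04 and 5.61 on MEF arrays, and was over the 40th percentile on 3 iMEF arrays and 0 MEF arrays, so its difference is not tested.

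**Figure D3:**
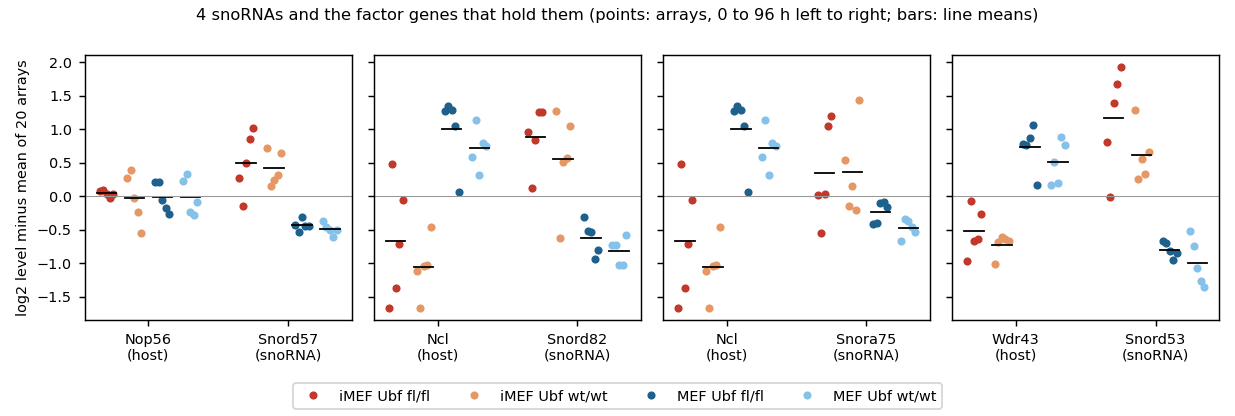
Log2 level minus the gene's mean over 20 arrays (y axis) for 4 snoRNAs and the factor genes that hold them, 1 point per array from 0 to 96 h and a bar at each line's mean. The iMEF arrays sit above the MEF arrays for most points of Snord57, Snord82 and Snord53, and below or level with them for the hosts Ncl, Wdr43 and Nop56.

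Of the 4 snoRNAs, Snord53 had a late effect of UBF loss past the threshold, in iMEFs. In Ubf fl/fl iMEFs Snord53 read 10.94, 10.12, 11.52, 11.81 and 12.06 at 0 to 96 h, against 11.42, 10.39, 10.68, 10.46 and 10.79 in Ubf wt/wt iMEFs. The floxed line was below the control at 0 and 24 h and above it at the 3 later times. The late effect was 1.52 ± 0.19 (adjusted p = 0.0232) and that of Wdr43 -0.22 ± 0.33 (adjusted p = 0.729). The Snord53 call held under 10 of 14 alternatives and was lost without the 24 h arrays (adjusted p = 0.648), without the 72 h arrays (0.381), without the 2 arrays that stood apart (0.0956) and in floxed cells alone (0.223). Snord57 gave 0.76 ± 0.15 beside 0.53 ± 0.19 for Nop56, and neither was called (adjusted p = 0.0596 and 0.154). In MEFs Snord53 gave 0.41 ± 0.19 (adjusted p = 0.718).

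The late effect of UBF loss asks whether the factors change once UBF is lost. It was the change of the Ubf fl/fl line from 0 and 24 h to 48, 72 and 96 h, less that of the Ubf wt/wt line, fitted with limma over all 20 arrays. No member passed the threshold in iMEFs, in MEFs, in their mean or in their difference, where 0.223% of all genes did in iMEFs (0.183% higher and 0.0393% lower) and 0% in the other 3 contrasts. At an unadjusted p under 0.05, 7 members were higher and 5 lower in iMEFs, 3 higher and 0 lower in MEFs, 10 higher and 7 lower in their mean, and 0 in their difference. These are 20.3%, 5.08%, 28.8% and 0% of the members, against 22.1%, 6.89%, 23.2% and 7.44% of all genes. The median effect was -0.22 in iMEFs, against -0.035 over all genes, with 20 members positive and 39 negative, and -0.034 in MEFs, against 0.061 over all genes, with 33 negative. The standard error of the effect had a median of 0.21 over all genes, so an effect of the size of these medians was not detectable for a single factor.

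Rrp9 had the highest late effect of all members in both cell types. Npm1, at -1.09, lay about as far below 0 in iMEFs. In iMEFs Rrp9 read 9.47, 9.63, 10.03, 10.31 and 9.39 at 0 to 96 h in Ubf fl/fl cells, against 10.71, 10.48, 9.66, 9.99 and 10.00 in Ubf wt/wt cells. In MEFs it read 9.21, 9.29, 9.47, 9.19 and 9.77 in Ubf fl/fl cells, against 10.26, 10.03, 9.37, 8.95 and 9.35 in Ubf wt/wt cells. In both cell types the floxed line was more than a log2 unit below its control at 0 h and above it at 48 and 72 h, while the control was lower at the late times than at 0 and 24 h. At 96 h the floxed line was below its control in iMEFs and above it in MEFs. The effect of Rrp9 was 1.07 ± 0.28 in iMEFs (95% interval 0.45 to 1.70; adjusted p = 0.0849), 1.139 ± 0.28 in MEFs (0.52 to 1.76; adjusted p = 0.636) and 1.11 ± 0.20 in their mean (adjusted p = 0.0894). Taken in the floxed cells alone, without the control, it was 0.36 in iMEFs and 0.22 in MEFs. Without the 96 h arrays it passed in iMEFs (1.39, adjusted p = 0.0203), as did 10.9% of all genes.

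Other members with large late effects were not called. In iMEFs the highest after Rrp9 were 0.53 ± 0.19 for Nop56 and 0.52 ± 0.17 for Bop1, and the lowest were -1.09 ± 0.58 for Npm1, -1.05 ± 0.38 for Gnl2, a GTPase of the large subunit, and -1.01 ± 0.42 for Brix1 (adjusted p = 0.154, 0.123, 0.289, 0.157 and 0.194). Npm1 read 8.67, 10.28, 8.59, 9.09 and 9.44 in Ubf fl/fl iMEFs, against 8.51, 7.96, 8.92, 8.68 and 9.09 in Ubf wt/wt iMEFs. The 24 h array of the floxed line is the only one of that line above 10, and it enters the early mean. Without that array and the floxed MEF array at 96 h, 0 members were called in all 4 contrasts and the members' median became -0.015 in iMEFs, 0.11 in MEFs and 0.061 in their mean. In MEFs the highest after Rrp9 were 0.43 ± 0.15 for Bysl and 0.35 ± 0.15 for Nop2, and the lowest -0.72 ± 0.49 for Utp18, -0.61 ± 0.30 for Utp6 and -0.59 ± 0.38 for Wdr75 (adjusted p = 0.706, 0.706, 0.731, 0.718 and 0.718). In the mean of both cell types Bop1 and Pwp2 followed Rrp9, at 0.41 and 0.39, and Utp18, Gnl2 and Npm1 were lowest, at -0.84, -0.79 and -0.70. The difference between iMEFs and MEFs ran from -0.78 ± 0.82 for Npm1, -0.78 ± 0.48 for Ddx18 and -0.75 ± 0.59 for Brix1 to 0.27 ± 0.23 for Nhp2, 0.37 ± 0.36 for Rrs1 and 0.42 ± 0.27 for Nop56 (adjusted p = 0.849 for Npm1 and 0.764 for Nop56).

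**Figure D4:**
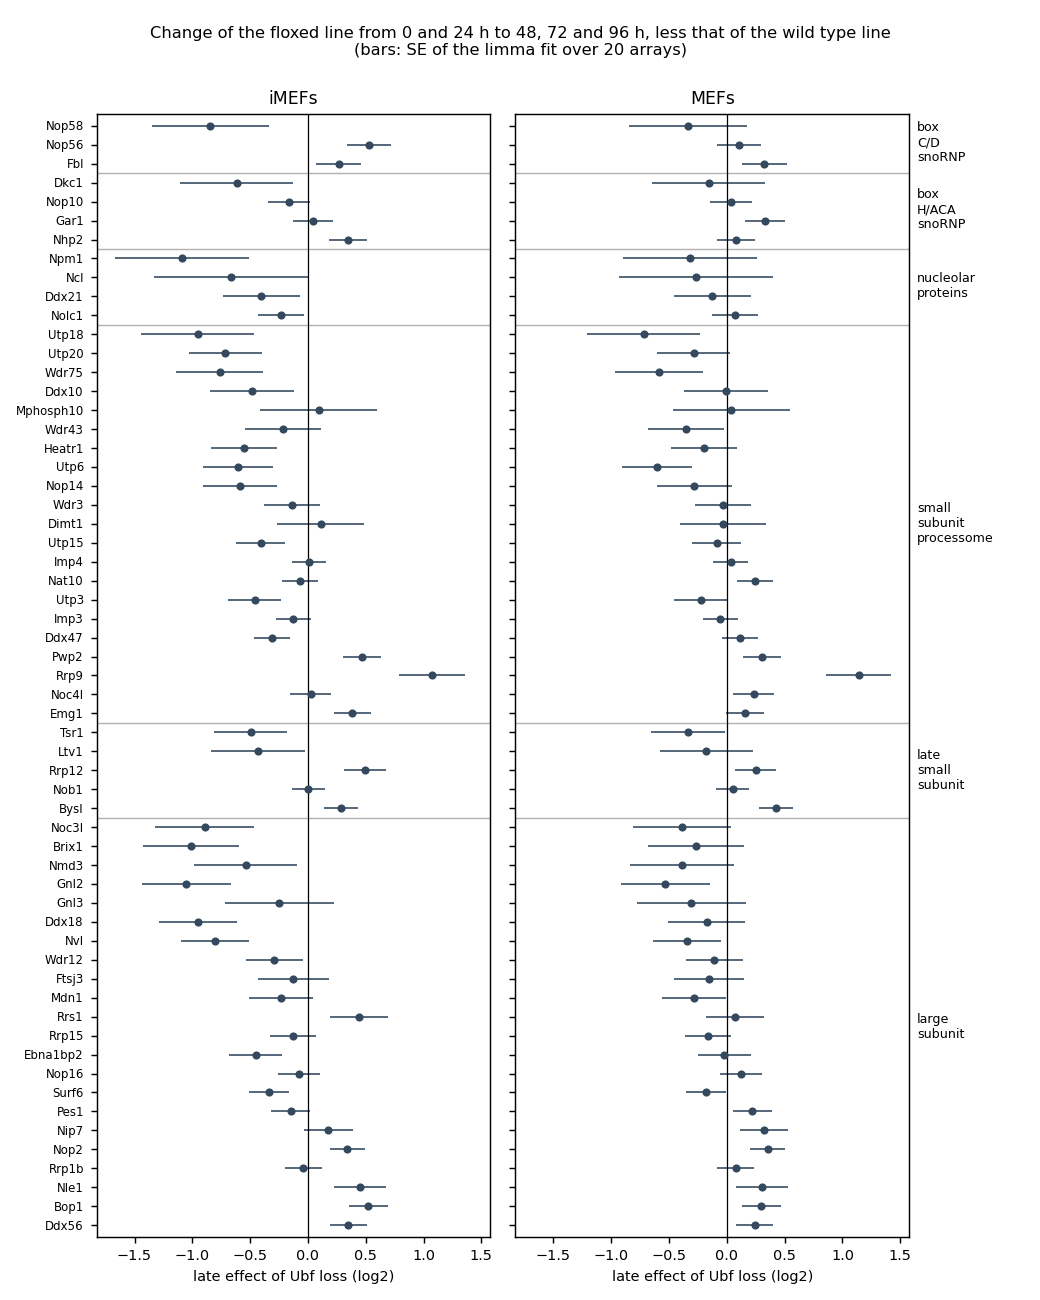
Late effect of UBF loss (log2, x axis) for each of the 59 factors in iMEFs (left) and MEFs (right), with bars for the SE of the limma fit over 20 arrays and grey lines between the steps. No factor passed the adjusted threshold in either panel, and Rrp9 lies farthest to the right in both, at 1.07 and 1.139.

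Each step held late effects of both signs in iMEFs, save the nucleolar proteins, of which Npm1, Ncl, Ddx21 and Nolc1 gave -1.09, -0.67, -0.40 and -0.23. In MEFs the same 4 gave -0.32, -0.27, -0.12 and 0.07. Fbl gave 0.26 ± 0.20 in iMEFs and 0.32 ± 0.20 in MEFs. Among the enzymes of the snoRNPs and of 18S rRNA, Dkc1 gave -0.62 ± 0.49 and -0.15 ± 0.49, Nat10 -0.07 ± 0.16 and 0.25 ± 0.16, and Emg1 0.38 ± 0.16 and 0.16 ± 0.16 in iMEFs and MEFs. None of these passed the threshold.

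Over time a few factors fell on the average of floxed and control lines. The slope per day post 4-HT was taken in each line, and the 4 slopes were tested with limma. Genotype was not a term of this test, so the slopes include any change that followed UBF loss in the floxed lines. Over the 4 lines 6 members fell and 0 rose, which is 10.2% lower against 5.4% of all genes lower and 2.91% higher (8.32% in either direction). They were Dkc1 (-0.20 ± 0.05 per day), Ddx21 (-0.20 ± 0.05), Imp4 (-0.18 ± 0.04), Rrp1b (-0.17 ± 0.04), Gar1 (-0.15 ± 0.04) and Rrs1 (-0.15 ± 0.05), with adjusted p = 0.00206, 0.0017, 0.00409, 0.00933, 0.0225 and 0.0286. The median slope was -0.067 over the members and 0.00165 over all genes. Slopes were negative in all 4 lines for 20 of 59 members and positive in all 4 for 1, and negative in all 4 for 12.8% of all genes.

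Imp4, of the Mpp10 complex, read 10.37, 10.51, 10.22, 9.84 and 9.28 at 0 to 96 h in floxed iMEFs, against 10.66, 10.63, 10.35, 10.09 and 9.49 in their controls. In MEFs it read 10.68, 10.67, 10.48, 10.29 and 10.49 in floxed cells, against 10.82, 10.62, 10.42, 10.32 and 10.55 in controls. Both iMEF lines fell by over a log2 unit, and both MEF lines fell to 72 h and were higher at 96 h. Gar1 read 9.76, 10.10, 9.72, 9.63 and 9.27 in floxed iMEFs, against 10.07, 10.09, 9.71, 9.67 and 9.55 in control iMEFs. It read 9.93, 9.93, 9.75, 9.55 and 9.51 in floxed MEFs, against 10.03, 10.24, 9.60, 9.30 and 9.52 in control MEFs. All 4 lines were lower at 96 h than at 24 h. Rrp1b read 8.90, 8.95, 8.40, 8.14 and 8.26 in floxed MEFs, against 9.01, 8.92, 8.30, 8.16 and 8.24 in control MEFs, a drop between 24 and 48 h in both. The 9 proliferation markers measured had slopes with a median of -0.35 over the lines, -0.065 in iMEFs and -0.62 in MEFs, and their part in the slopes of the factors was not tested.

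Within cell types fewer slopes passed. In iMEFs 4 members fell, 6.78% against 3.12% of all genes lower and 1.06% higher (4.18% in either direction), namely Imp4 (-0.29 ± 0.06), Utp18 (-0.26 ± 0.07), Ddx21 (-0.25 ± 0.06) and Rrs1 (-0.23 ± 0.06), the last a factor of the 5S particle of the large subunit (adjusted p = 0.00372, 0.0232, 0.0123 and 0.0261). In MEFs 2 fell, 3.39% against 3.13% of all genes lower and 2.67% higher (5.79% in either direction), namely Dkc1 (-0.23 ± 0.07) and Rrp1b (-0.22 ± 0.06; adjusted p = 0.0232 and 0.0234). By line the slope of Dkc1 was -0.345 in floxed and -0.111 in control MEFs, and that of Rrp1b -0.209 and -0.231. When the 2 arrays that stood apart were left out, Dkc1 was not called in MEFs (-0.15, limma adjusted p = 0.0553). Rrp1b was called there (-0.26, adjusted p = 0.00339). Without the 2 arrays that stood apart, 22 members passed over the 4 lines, 17 lower and 5 higher, as did 21.5% of all genes, and the 5 higher were Mphosph10, Ncl, Nmd3, Npm1 and Wdr43. With 1 line left out, 1 line of its cell type remained. The slope over the other lines then ran from -0.26 to -0.14 for Dkc1 and from -0.24 to -0.17 for Ddx21. It ran from -0.19 to -0.18 for Imp4, from -0.17 to -0.16 for Rrp1b, from -0.17 to -0.13 for Gar1 and from -0.18 to -0.12 for Rrs1. These ranges are sizes alone, and a narrow range does not show that a call held. Under quantile scaling Dkc1 alone kept its call over the 4 lines (-0.22 per day, limma adjusted p = 0.0431).

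**Figure D5:**
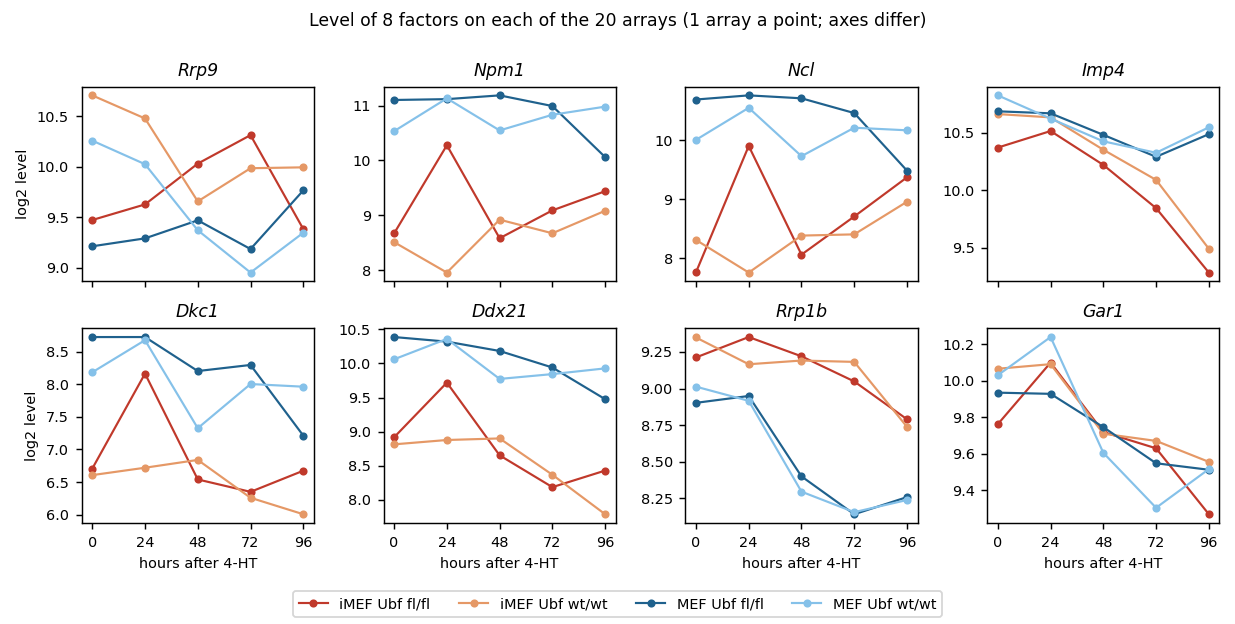
Log2 level (y axis, scale differs between panels) of 8 factors on each of the 20 arrays against hours after 4-HT, 1 line per cell line and 1 array per point. Imp4, Gar1 and Rrp1b are lower at 96 h than at 24 h in all 4 lines, Npm1, Ncl and Dkc1 peak at 24 h in Ubf fl/fl iMEFs, and Rrp9 starts lower in Ubf fl/fl than in Ubf wt/wt cells of both types.

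The slope differed between iMEFs and MEFs for 1 member, Ncl, where 3.22% of all genes differed (1.58% with a higher and 1.63% with a lower slope in iMEFs). Ncl read 7.76, 9.91, 8.06, 8.71 and 9.37 at 0 to 96 h in floxed iMEFs, against 8.31, 7.76, 8.39, 8.41 and 8.96 in control iMEFs. It read 10.70, 10.77, 10.72, 10.47 and 9.49 in floxed MEFs, against 10.01, 10.55, 9.73, 10.22 and 10.17 in control MEFs. It was higher at 96 h than at 0 h in both iMEF lines and lower in the floxed MEF line. The slopes were 0.20 ± 0.07 per day in iMEFs and -0.14 ± 0.07 in MEFs, neither past the threshold (adjusted p = 0.0769 and 0.335), and their difference was 0.34 ± 0.09 (adjusted p = 0.0311). The call was lost without the 96 h arrays (0.14, adjusted p = 0.354), without the 0 h arrays (adjusted p = 0.208), with quantile scaling (0.204), and with the Ubf fl/fl iMEF line (0.577), the Ubf wt/wt iMEF line (0.28) or the Ubf fl/fl MEF line (0.293) left out.

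In the first day after 4-HT no member changed past the threshold over the 4 lines, nor did any gene tested (0%). At an unadjusted p under 0.05, 11 members were higher and 1 lower at 24 h than at 0 h, 20.3% in all, against 12.5% of all genes (763 higher and 1142 lower). The median change was 0.14 over the members and -0.018 over all genes. By line it was 0.37 in floxed iMEFs, against -0.029 in control iMEFs, and 0.035 in floxed MEFs, against 0.21 in control MEFs. Without the Ubf fl/fl iMEF line the median became 0.034. The largest rises were 0.55 ± 0.36 for Ncl, 0.55 ± 0.14 for Gnl2 and 0.52 ± 0.22 for Dkc1, and the largest falls -0.20 ± 0.09 for Imp3, -0.18 ± 0.11 for Nle1 and -0.13 ± 0.08 for Nob1 (adjusted p = 0.529, 0.379, 0.398, 0.4, 0.488 and 0.507).

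Of the 79 other genes of the pathway, 0 passed in the late effect in either cell type. Over the 4 lines 6 fell with time and 1 rose (7.59% lower), in iMEFs 2 fell and 1 rose, and in MEFs 2 fell. Their median slope was -0.043, between that of the members (-0.067) and that of all genes (0.00165).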

How the data were processed

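RNA from 4 fibroblast lines at 5 times post 4-HT was hybridised to 20 Affymetrix arrays, 1 per condition. The deposited values are log2 signals, which the authors made per the labels with RMA (sketch version) in Affymetrix Power Tools 1.14.4, so background correction, quantile scaling and probe summary preceded every value used here. Of 35556 probe sets, 21789 carry 1 gene symbol in the platform annotation, 1621 several and 12146 are not listed there. The study's methods and the annotation name different versions of the array, which leaves the genome build open, and no array coordinates are given. For each of 19938 genes the one-symbol probe set with the highest mean was used, and the 15272 genes over the 40th percentile on at least 2 arrays were tested.

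Tests used limma 3.58.1 (R 4.3.3) over all tested genes with Benjamini-Hochberg adjustment at 0.05, and errors are standard errors of the fit unless stated. The cell comparison took line means over 5 times (2 lines against 2, 2 residual degrees of freedom), the slopes were fitted per line (2, to which limma's prior over genes added 45.4), the first day was the change of each line to 24 h (3), and the late effect was fitted with line, time within cell type and genotype by late time (6). Its error comes from times and assumes that genotypes share all other changes over time. The tests were also run on simulated data with independent noise and, besides the added changes, no differences between lines or arrays. That setting differs from these arrays, so it does not give the error rate here. No repeated culture was measured, and the number of arrays limits the precision. The p-values rest on the spread between these lines and times, which may be technical, and on limma's prior over genes. For the slopes that prior outweighs the spread of a gene's own lines, so their p-values do not measure that spread.

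The members and the gene lists were chosen with earlier results of these data known. Genes named with values were set members of each step, in each comparison up to 8 called members in each direction by size, and the 3 largest in each direction where 0 were called. Other members were named after their values were seen, to account for each step. Of 22 alternatives, 21 were planned and 1 was added after seeing the data. Promoter sequences came from RefSeq.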

Additional observations from a re-analysis of the deposited data

Results flagged for a closer look

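The slope of Ncl (nucleolin) over the days post 4-HT differed between cell types by a test of the difference itself. Its slope was 0.20 ± 0.07 per day in iMEFs and -0.14 ± 0.07 in MEFs, a difference of 0.34 ± 0.09 on the log2 scale (SE; limma, adjusted p = 0.0311). By line it was 0.203 in Ubf fl/fl iMEFs, against 0.195 in Ubf wt/wt iMEFs, and -0.272 in Ubf fl/fl MEFs, against -0.00136 in Ubf wt/wt MEFs. The error of the test came mostly from limma's prior over genes (45.4 degrees of freedom) and less from these line slopes (2). With the Ubf fl/fl iMEF array at 24 h and the Ubf fl/fl MEF array at 96 h left out, the difference was 0.33 (adjusted p = 0.037), and with the Ubf fl/fl MEF line left out it was 0.2 (adjusted p = 0.293).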

How the results depend on the processing

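Replicates could not be paired because the labels number none and each condition had 1 array. Times and lines entered the fits as terms, and the late effect set floxed against control arrays of the same times. Of 139 counts of members called, 106 stayed within 1.5 times the reported count and 33 did not. Percentages in brackets after a count are the shares of all genes called in the same setting. In the cell comparison the count was 45 (66.3%), with 30 on the 0 h arrays alone, 28 lower and 2 higher (30.6%). On the 96 h arrays alone it was 31, 28 lower and 3 higher (35.8%). It was 46 with genotype as a covariate (66.5%), and 51 with the line as a random block (77.6%, consensus correlation 0.108). In the late effect in iMEFs 5 members were called without the 96 h arrays, where 10.9% of all genes were called. They were Rrp9 (higher) and Gnl2, Ltv1, Heatr1 and Utp15 (lower), against 0 members (0.223% of all genes) in the main fit. The first day gave 0 with any line left out. The slopes depended more on the processing. Over all lines the count was 6 (8.32%), with 1 under quantile scaling (2.61%) and 2 without the 96 h arrays (4.83%). It was 22 without the iMEF floxed 24 h and MEF floxed 96 h arrays (21.5%). In iMEFs it was 4 (4.18%), with 0 under quantile scaling (0.0458%), without the 96 h arrays (0.0458%) and for late minus early times (0.183%). It was 9 without the 0 h arrays (6.77%) and 7 without those 2 floxed arrays (4.96%). In MEFs it was 2 (5.79%), with 0 under quantile scaling (2.54%), under a trended robust prior (3.78%) and without the 0 h arrays (2.84%). It was 1 for late minus early times (3.86%) and 13 without the 2 floxed arrays (20.4%). For the difference in slope it was 1 (3.22%), with 0 under quantile scaling (0.465%), with no filter (1.92%) and with the 60th percentile filter (3.09%). It was also 0 without the 96 h arrays (0.36%), without the 0 h arrays (1.87%) and for late minus early times (0.485%). Without the 2 floxed arrays it was 6 (7.23%). For the cell comparison and the slopes no count is given with a line left out, because 1 line of its cell type then remains. The causes were not tested.

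Of 1008 values of single genes, 881 kept direction and side of the threshold, 89 lost the call, 20 gained one and 18 turned, all of the last from values that were not called. In floxed cells alone the late effect became -0.075 for Nop56 and -0.11 for Bop1 in iMEFs, and -0.22 for Bysl and -0.16 for Nop2 in MEFs. Without the 2 floxed arrays the mean late effect of Npm1 became 0.054, and without the 24 h arrays the difference between cell types became 0.59 for Npm1 and 0.019 for Brix1. Over all lines the slope without the 0 h arrays became -0.016 for Wdr43, -0.012 for Mphosph10 and -0.052 for Ncl, and that of Ncl became -0.0796 for late minus early times. With 1 line left out it ran from -0.0074 to 0.118 for Wdr43, from -0.015 to 0.101 for Mphosph10 and from -0.036 to 0.0987 for Ncl, below 0 without the Ubf wt/wt MEF line. In iMEFs without the 0 h arrays it became -0.027 for Wdr43, and in MEFs with 1 line left out it ran from -0.049 to 0.264 for Nmd3, from -0.062 to 0.19 for Brix1 and from -0.078 to 0.193 for Noc3l, again below 0 without the Ubf wt/wt line. Nop58, Mphosph10 and Ddx10 were over the 40th percentile on 1 of 10 iMEF arrays, so their signals in iMEFs are near the low end of the scale.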
